A study of Mus musculus with 8 samples.

Results

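Hepatocyte-enriched transcription factors were followed in liver RNA of C3H/HeN mice on Agilent 2-colour arrays. The genes were Foxa1, Foxa2, Foxa3, Cebpa, Cebpb, Cebpd, Onecut1 and Prox1, taken as every array feature whose annotated gene symbol was 1 of these 8 names. They had 21 features, all with a measured ratio on all 8 arrays, and made up 8 of 15346 tested genes. The 4 groups had 2 arrays each. Female IL1-beta and male IL1-beta mice received 25 µg/kg of recombinant murine IL1-beta, and female control and male control mice received vehicle. All mice were 8 weeks old and were injected into the peritoneum every other day for 2 weeks, with the liver taken 1 h after the last dose. By the labels each array set Cy5-labelled liver RNA against Cy3-labelled Universal Mouse Reference RNA, which was prepared from 11 cell lines and is called the pool below. The labels call the arrays of a group biological replicates without saying whether each came from a separate mouse. Every p-value and SE below rests only on how far 2 such arrays lay apart within a group, pooled over groups and moderated over genes.

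The FOXA proteins are forkhead factors that open compacted chromatin and so let other regulators bind at liver enhancers. The C/EBP proteins are basic leucine zipper factors. C/EBP-alpha maintains the metabolic programme of the adult hepatocyte, while C/EBP-beta and C/EBP-delta are induced by inflammatory cytokines and drive acute phase genes. Onecut1, also called HNF6, carries a cut domain beside a homeodomain and acts in hepatocyte and bile duct development. Prox1 is a homeobox factor of hepatocytes and of lymphatic endothelium.

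The arrays fell into 2 unlike sets, which sets what can be compared. On the IL1-beta arrays the deposited values had the profile of liver over the pool. The 10 hepatocyte markers had medians (log2 ratio) of 5.95 and 6.08 in females and 6.16 and 6.41 in males given IL1-beta, and the medians of 15 cell cycle genes lay between -3.59 and -2.85. On the arrays labelled control neither signal was present. The hepatocyte medians there were 0.08 and 0.23 on the arrays labelled male and -0.16 and -0.37 on those labelled female. Female and male control arrays mirrored each other, with r between -0.722 and -0.478 across genes, which are not independent replicates. Xist, the noncoding RNA of X inactivation, had values of 5.40 and 5.78 on the arrays labelled male control, against -4.94 and -4.57 under the female control label. The Y-linked gene Eif2s3y read -9.17 and -10.56 on the arrays labelled male control and 10.03 and 10.80 on those labelled female control, and the Y-linked genes Kdm5d and Uty had its sign. The direction of the control ratios is therefore not settled by the labels. They are read here as a sex contrast, as the value on the arrays labelled male minus that on the arrays labelled female, divided by 2, so that a positive value lies on the side of Xist. An IL1-beta effect is not given, since the control arrays hold no ratio of liver to the pool.

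Promoter sequences are shown for Foxa1 and Onecut1 because these were the 2 genes that passed the test in the control comparison below. They are the 300 bases around the annotated start, 250 before it and 50 after, as given by RefSeq on build GRCm38.p6, and are printed 5′ to 3′ in the direction of the gene. Foxa1 lies on the minus strand at chr12:57546062-57546361 and Onecut1 on the plus strand at chr9:74861671-74861970. Capitals mark the single match in these windows to the 5 motifs searched.
Foxa1: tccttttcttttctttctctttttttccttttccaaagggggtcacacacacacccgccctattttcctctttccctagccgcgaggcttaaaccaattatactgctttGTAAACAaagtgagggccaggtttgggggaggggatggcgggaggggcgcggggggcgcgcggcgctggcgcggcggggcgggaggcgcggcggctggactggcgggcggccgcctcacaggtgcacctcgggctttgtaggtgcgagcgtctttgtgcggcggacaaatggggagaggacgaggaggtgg
Onecut1: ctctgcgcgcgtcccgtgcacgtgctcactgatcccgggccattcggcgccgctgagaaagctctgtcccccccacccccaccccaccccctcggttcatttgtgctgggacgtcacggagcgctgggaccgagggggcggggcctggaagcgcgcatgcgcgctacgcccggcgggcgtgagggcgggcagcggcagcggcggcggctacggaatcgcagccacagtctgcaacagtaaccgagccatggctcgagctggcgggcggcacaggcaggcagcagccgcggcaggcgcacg
The motifs, searched on both strands, were TTCNNNGAA (STAT), TTGCNNAA (C/EBP), ATTGAT (ONECUT), TGTTTAC (FOXA) and the NF-kB motif. The match in Foxa1 is a FOXA motif on the opposite strand at position -141 from the start. Such a motif stood in 3.65% of 32851 promoter windows of the same length. The other shares were 8.30% (STAT), 10.8% (C/EBP) and 1.63% (NF-kB). None of the 5 motifs was found in the Onecut1 window, and G or C made up 73.0% of it, against 62.3% in the Foxa1 window. Of the other genes, 1 of 3 Foxa2 windows held ATTGAT, at position -213 from its start, a motif found in 7.54% of all windows. The table held 10 windows for 7 of the 8 genes. Cebpd had no entry.

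All 8 genes were higher in IL1-beta liver than in the cell-line pool. The ratio was 70.4-fold for Foxa3, about 16.6- to 19.3-fold for Foxa2, Prox1, Onecut1 and Cebpa, and 3.33- to 4.17-fold for Cebpb, Foxa1 and Cebpd. All 8 passed the limma test (adjusted p under 0.05 over all genes). Of all tested genes 78.5% passed in either direction and 36.2% on the liver side, and all 4 arrays lay above 0 for 8 of 8 genes, against 37.5% of tested genes (81.4% had all 4 on 1 side of 0). These values are ratios to the pool and not levels in liver, and they leave out the spread of the pool. The base of the deposited logarithm is not stated, and every fold and log2 value rests on reading it as log10.

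Among the forkhead genes, Foxa3, the form most tied to adult liver, gave the highest ratio. It read 5.85 and 6.05 in females and 6.11 and 6.54 in males. The mean was 6.14 ± 0.14 (log2, limma SE, n = 4 arrays), above 98.4% of tested genes. Foxa2, which also acts in the pancreas and lung, read 4.44 and 4.40 in females and 3.63 and 4.61 in males, with a mean of 4.27 ± 0.17. Its groups overlapped, and the lower male array stood apart from the other 3. Foxa1 read 1.13 and 1.22 in females and 2.28 and 2.65 in males, with a mean of 1.82 ± 0.11, and its groups did not overlap. The SE leaves out the difference between the sexes, and the SD of the 4 Foxa1 values was 0.76. The 3 forkhead genes thus covered most of the range of the 8 on the IL1-beta arrays, from 1.82 (Foxa1) to 6.14 (Foxa3).

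Cebpa read 3.88 and 4.12 in females and 4.20 and 4.003 in males, for a mean of 4.05 ± 0.16, with overlapping groups. The features of Cebpb and Cebpd read smaller ratios than those of Cebpa, as did that of Foxa1 (1.82). As no IL1-beta effect is given, these ratios do not bear on induction. Cebpb read 2.38 and 1.93 in females and 1.89 and 2.05 in males, with a mean of 2.06 ± 0.12. Cebpd read 1.68 and 1.33 in females and 1.49 and 2.43 in males, with a mean of 1.74 ± 0.16. Both had overlapping groups, and the second male array was the highest for Cebpd. Onecut1 read 3.85 and 3.92 in females and 4.15 and 4.29 in males, with a mean of 4.05 ± 0.09. Prox1 read 4.52 and 3.86 in females and 4.04 and 4.14 in males, with a mean of 4.14 ± 0.13. The adjusted p of the 8 genes in the limma test lay between 3.49e-08 (Onecut1) and 4.92e-05 (Cebpd).

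As gene means over features, Foxa3 had the highest of these ratios on every IL1-beta array, but this order depends on the feature for Prox1. With the Prox1 feature of highest ratio in place of the mean over 3, Prox1 stood at 6.85, above Foxa3 at 6.14. Ratios of different genes come from different features, whose spread the SE does not hold, so no further order among the 8 is drawn from them. Quantile normalization of all 8 arrays, which forces arrays of unlike spread onto a common distribution, lowered all 8 values, Foxa3 to 3.95 and Cebpd to 1.13, and all 8 still passed.

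**Figure D1:**
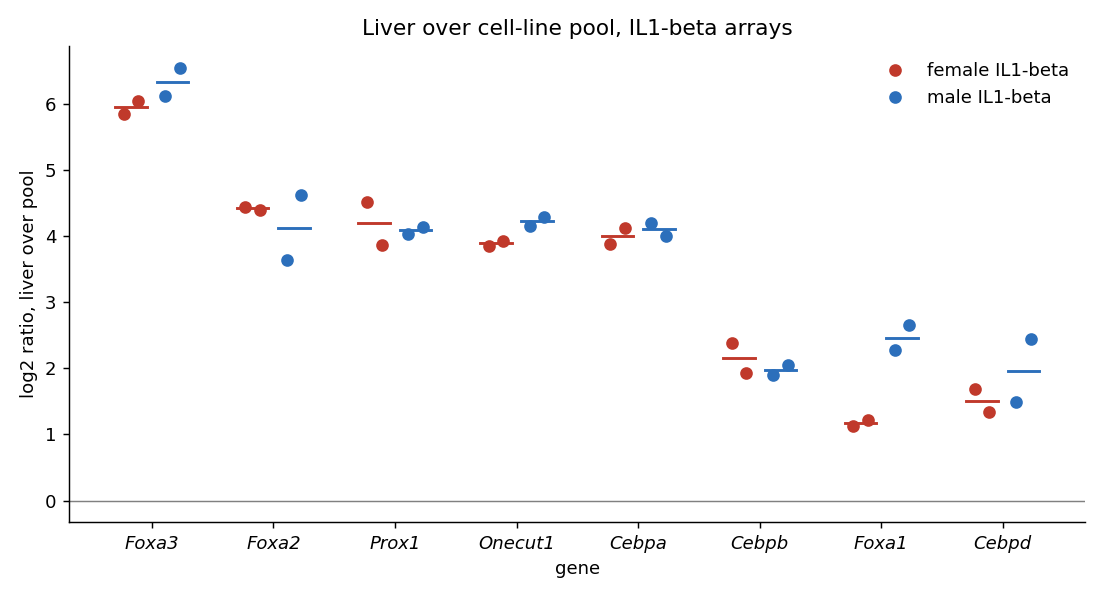
Log2 ratio of liver over the cell-line pool (vertical axis) for the 8 genes (horizontal axis, by falling mean) on the female (left, red) and male (right, blue) IL1-beta arrays. Points are single arrays and bars the mean of 2. Foxa3 lies at 5.85 to 6.54, and Foxa1 is the gene with the widest gap between the sexes.

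The 8 factors were set beside other lists of genes by their counts and medians. The median ratio was 4.05 for the 8 genes and -0.11 for all tested genes. Of 42 measured other liver transcription factors 34 were higher and 4 lower in liver, with a median of 1.39. The nuclear receptor Nr1i3 stood at 5.33 ± 0.09, the membrane-bound factor Creb3l3 at 5.24 ± 0.09 and the nuclear receptor Nr5a2 at 6.83 ± 0.12 (each limma adjusted p = 1.6e-08). Onecut2, a relative of Onecut1, stood at 3.85 ± 0.14. Of 21 other forkhead genes 8 were higher and 8 lower, with a median of -0.10. The mesenchymal forkhead genes Foxc2 (-3.47 ± 0.09) and Foxc1 (-4.62 ± 0.21) were lower, as was Foxj3 (-1.88 ± 0.12). Of 8 other C/EBP genes and partners 3 were higher and 4 lower, with a median of -0.18. Ddit3, a stress-induced C/EBP partner, was lower at -2.01 ± 0.10, as was the stress factor gene Atf4 at -1.43 ± 0.12, while Batf, a leucine zipper factor of immune cells, was higher at 1.83 ± 0.11.

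Lists of genes known to be driven by these factors had list medians above that of the 8 genes, a difference that was not tested. Of 21 hepatocyte targets 20 were higher and 1 lower in liver than in the pool, with a median of 6.38. Igfbp1, a FOXA target that binds insulin-like growth factors, stood at 7.43 ± 0.12, the glucose transporter gene Slc2a2 at 6.94 ± 0.11 and Apob, the protein of secreted lipoproteins, at 6.89 ± 0.11. The lower gene was Afp, the fetal counterpart of albumin, at -1.52 ± 0.15 (limma adjusted p = 6.07e-05). Of 21 acute phase targets of C/EBP-beta and C/EBP-delta 20 were higher and 0 lower, with a median of 5.28 and single genes between 0.73 (A2m, which did not pass) and 8.60. Saa1, serum amyloid A, stood at 5.63 ± 0.09, the orosomucoid gene Orm1 at 7.22 ± 0.11 and Fgb, a fibrinogen chain, at 7.02 ± 0.10. In whole liver, fewer cells of a type and less RNA per cell cannot be told apart.

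**Figure D2:**
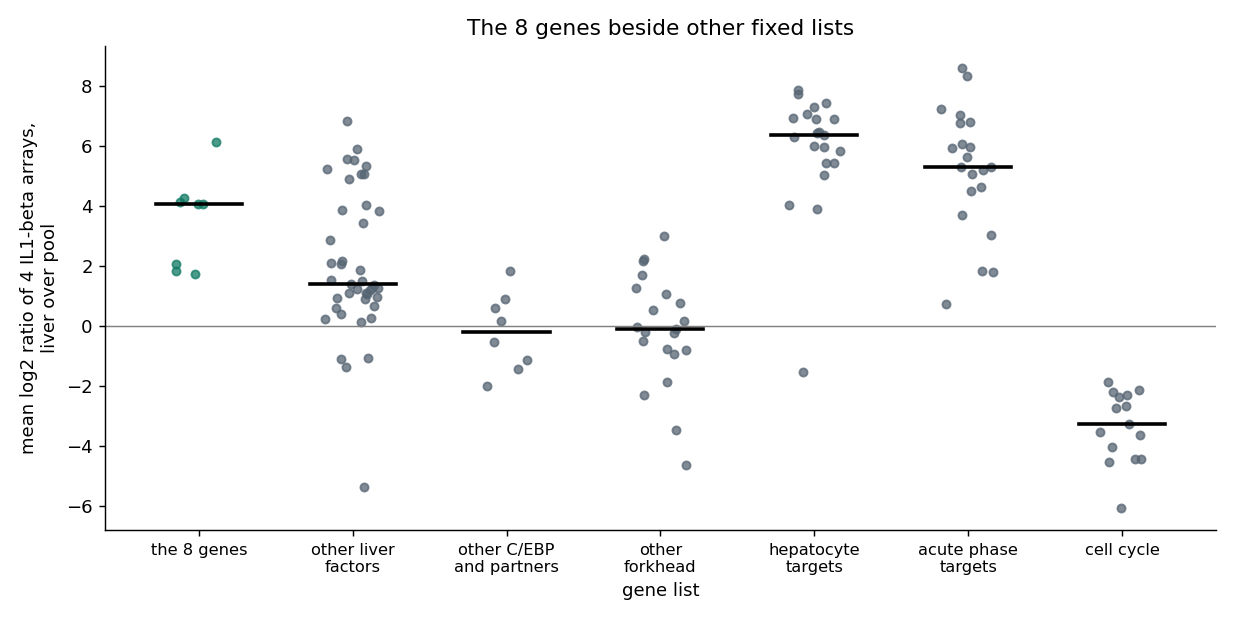
Mean log2 ratio of liver over pool on the 4 IL1-beta arrays (vertical axis) for each measured gene of 7 fixed lists (horizontal axis). Points are genes and bars the list median. The 8 genes have a median of 4.05, against 1.39 for other liver factors and -0.10 for other forkhead genes.

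The single features of a gene were compared within each array. Foxa2 had 10 features of the same accession, which differed within an array by an SD of only 0.039 to 0.067 (log2). Whether they are different probes or 1 probe printed 10 times is not given in the sources used here. Their agreement therefore does not show that the ratio is independent of the probe. On the array 164 accessions had 10 or more features, with a median SD of 0.085 to 0.141 by array. On the male IL1-beta arrays they spanned 3.55 to 3.75 on the first and 4.52 to 4.68 on the second. The gap of 0.98 between these arrays was thus far above the spread of features, and larger than the gap of 95.3% of tested genes, where the median gap was 0.25. The corresponding gap of Foxa2 between the female IL1-beta arrays was 0.04. Cebpd had a gap of 0.94 between the same male arrays, and its single feature allows no such check. Foxa1, Foxa3 and Onecut1 also had 1 feature each.

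The 3 Prox1 features gave unlike ratios. The feature annotated with AK038396 read 6.41 and 7.01 in females and 6.88 and 7.11 in males. Of the features annotated with NM_008937, the first read 5.51 and 3.03 in females and 3.49 and 3.42 in males. The other read 1.62 and 1.54 in females and 1.74 and 1.88 in males. The high value of the first on the first female array raised the gene mean there, and the female-minus-male difference was 0.82 for that feature and -0.28 and -0.23 for the others. The 2 Cebpa features averaged 4.58 and 3.53 and the 2 Cebpb features 1.90 and 2.22. The mean over features was used for each gene, and the set of transcripts that each feature reads is not given in the sources used here.

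**Figure D3:**
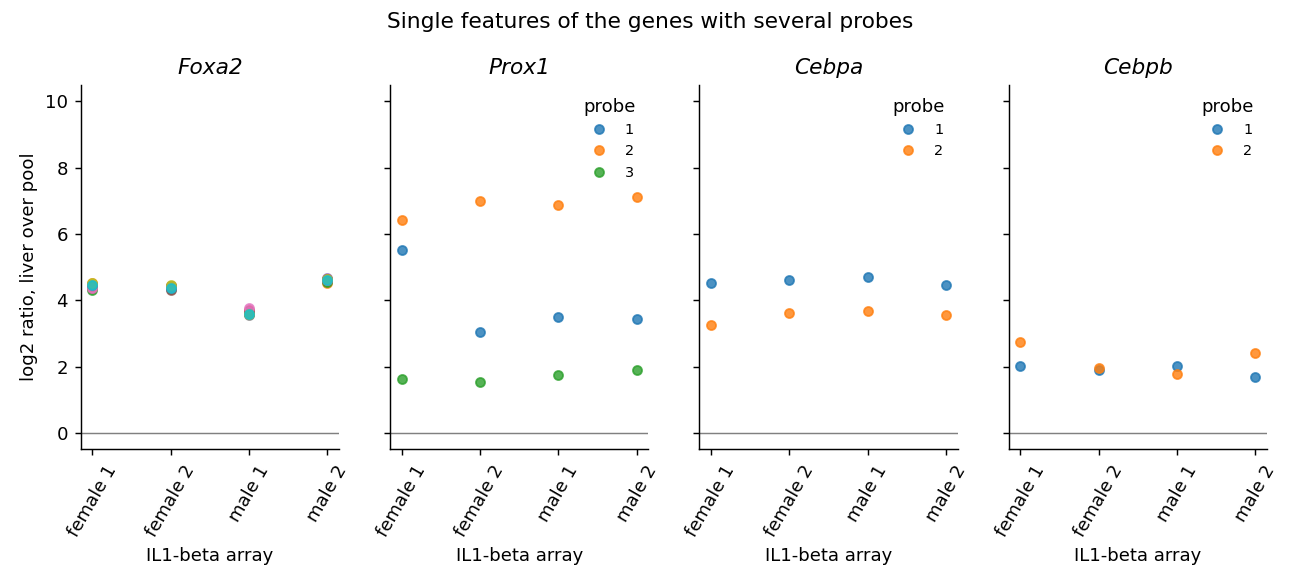
Log2 ratio of liver over pool (vertical axis) on the 4 IL1-beta arrays (horizontal axis) for each feature of Foxa2, Prox1, Cebpa and Cebpb. Each point is 1 feature on 1 array, coloured by feature. The 10 Foxa2 features nearly coincide on every array, while the 3 Prox1 features lie at means of 6.85, 3.86 and 1.70.

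The sex comparison under IL1-beta asks whether female and male livers differed after the cytokine. Foxa1 was the gene of the 8 with the largest difference, 1.13 and 1.22 in females against 2.28 and 2.65 in males, or -1.29 ± 0.22 (log2, female minus male, SE, n = 2 arrays per sex). It did not pass the limma test (adjusted p = 0.127, unadjusted p = 0.000637), where it ranked at place 77 of all genes by p. Its 95% interval without adjustment ran from -1.80 to -0.77. Over all alternatives the value lay between -1.47 and -0.79 and the adjusted p between 0.116 and 1.00, the last after quantile normalization.

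None of the 8 genes passed the limma test in this comparison, and 1 of 8, Foxa1, had an unadjusted p under 0.05. Of all tested genes 0.163% passed (0.0586% with females lower and 0.104% with females higher) and 8.28% had an unadjusted p under 0.05. Arrays of the sexes did not overlap for 3 of 8 genes (Foxa1, Foxa3 and Onecut1), all lower in females, where 36.9% of tested genes did not overlap and 18.8% did so with females lower. The hepatocyte markers lay on the same side. Of 10 measured, 9 were below 0 and 0 above, 8 did not overlap and 0 passed (3 with an unadjusted p under 0.05), with a median of -0.30. Of 9 sinusoidal endothelial markers 8 were above 0 and 0 passed (1 unadjusted), with a median of 0.49. The part of the cell makeup in the values of the 8 genes was not tested. Foxa3 stood at -0.38 ± 0.28 (interval -1.05 to 0.29) and Onecut1 at -0.33 ± 0.18 (interval -0.76 to 0.09). Cebpd stood at -0.46 ± 0.33 (interval -1.23 to 0.32), with overlapping arrays. Cebpb (0.18 ± 0.25), Foxa2 (0.30 ± 0.33), Prox1 (0.10 ± 0.27) and Cebpa (-0.10 ± 0.33) lay closer to 0, and their intervals reached from -0.88 to 1.09.

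Among other liver factors 1 of 42 passed and was higher in females. It was Cux2, a cut-domain factor of female mouse liver, which stood at 5.59 ± 0.22 (limma adjusted p = 0.000626). Of 21 other forkhead genes 1 passed, Foxc2, higher in females at 1.80 ± 0.19 (adjusted p = 0.0203). None of 21 hepatocyte targets, 21 acute phase targets or 8 other C/EBP genes and partners passed, with an unadjusted p under 0.05 for 2, 3 and 2 of them. The genes with the smallest p were G6pc (1.79 ± 0.33, adjusted p = 0.156), Fgb (-0.75 ± 0.20, adjusted p = 0.334) and Trib1 (0.65 ± 0.19, adjusted p = 0.369). The medians of these lists were -0.30, -0.18 and -0.11. For the 8 genes the median was -0.22 and for all tested genes -0.01.

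On the control arrays the clearest gene was Onecut1. It read -0.47 and -0.57 on the arrays labelled male and 0.49 and 0.69 on those labelled female, so that the labels did not overlap and the values mirrored each other about 0. Turned and divided by 2 this was -0.55 ± 0.09, away from Xist (limma adjusted p = 0.00755), or 1.11 ± 0.18 as labelled, female minus male. Foxa1 read -0.54 and -0.25 on the arrays labelled male and 0.56 and 0.31 on those labelled female, or -0.42 ± 0.11 (adjusted p = 0.0375; as labelled 0.83 ± 0.22). Both genes were thus on the side of the Y-linked genes, as far as the sex chromosome genes set the direction.

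These calls rest on few arrays. Same-number control arrays may share RNA, in which case they are not independent, and with 1 mean per same-number pair Onecut1 had an adjusted p of 0.0595 and Foxa1 of 0.168 in the limma test. The call for Foxa1 was also lost when any of the 8 arrays was left out (adjusted p = 0.0513 to 0.186, value -0.49 to -0.34). That for Onecut1 held without each array (adjusted p = 0.0142 to 0.0423, value -0.60 to -0.50).

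In all 2 of 8 genes passed, 0 on the Xist side and 2 opposite. Of all tested genes 21.4% passed, 12.1% on the Xist side and 9.3% opposite, so the count is close to that of genes in general. Unadjusted p-values under 0.05 were found for 3 of 8 genes, against 36.7% of tested genes. With means of same-number pairs 0 of 8 passed in limma, where 7.08% of tested genes did, and 3 of 8 (Foxa1, Foxa3 and Onecut1) had an unadjusted p under 0.05. The labels did not overlap for 6 of 8 genes, against 67.4% of tested genes, and 3 of these lay below 0 in the turned difference, where 35.3% of tested genes did so without overlap.

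Foxa3 read -0.9999 and -0.74 on the arrays labelled male and 0.35 and -0.31 on those labelled female, or -0.44 ± 0.14 (adjusted p = 0.0654). Cebpa read -0.11 and -0.08 on the arrays labelled male and -0.28 and -1.29 on those labelled female, or 0.35 ± 0.16 (adjusted p = 0.177). The second array labelled female set most of that difference. Without the first array labelled female Cebpa stood at 0.60 and passed (adjusted p = 0.0301), and without the second at 0.09. Cebpb (0.09 ± 0.12), Cebpd (0.13 ± 0.16), Foxa2 (0.09 ± 0.17) and Prox1 (0.13 ± 0.13) did not pass, with intervals that reached from -0.30 to 0.52.

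**Figure D4:**
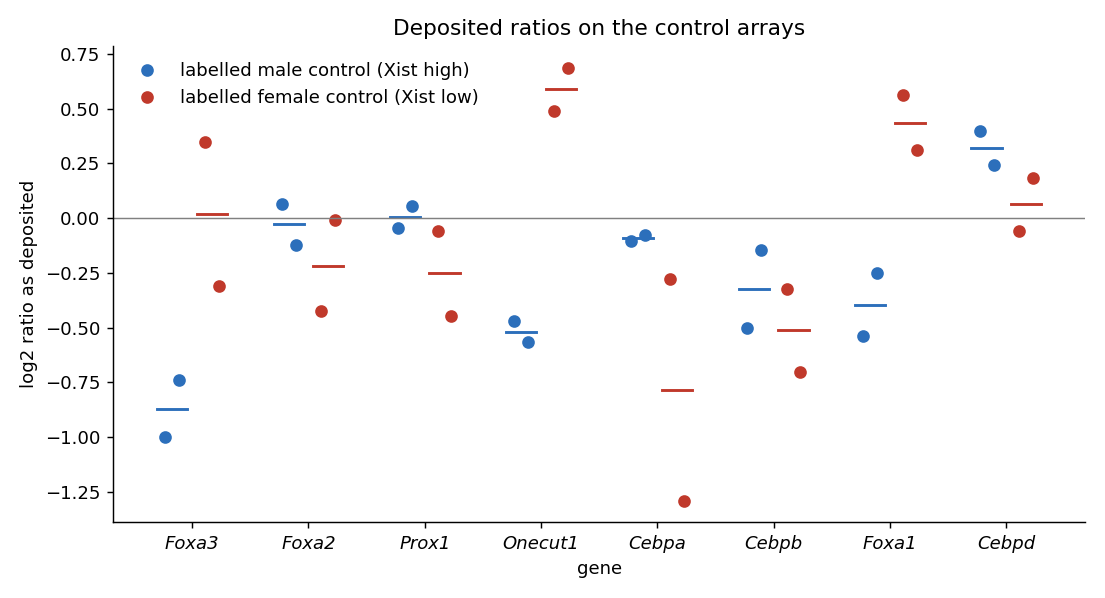
Log2 ratio as deposited (vertical axis) for the 8 genes (horizontal axis) on the control arrays labelled male (left, blue, Xist high) and labelled female (right, red, Xist low). Points are single arrays and bars the mean of 2. Onecut1 and Foxa1 lie on opposite sides of 0 under the 2 labels, while Cebpb is below 0 on all 4 arrays.

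Among other liver factors 5 of 42 passed on the control arrays, 2 on the Xist side and 3 opposite. The estrogen receptor gene Esr1 was on the Xist side at 1.22 ± 0.12 (limma adjusted p = 0.00145), as was Cux2 at 2.99 ± 0.11 (adjusted p = 2.10e-05), while the nuclear receptor gene Hnf4g lay opposite at -0.54 ± 0.09 (adjusted p = 0.00720). Of 21 other forkhead genes 4 were on the Xist side and 3 opposite, among them Foxc2 (1.32 ± 0.09), Foxc1 (1.91 ± 0.21) and, opposite, Foxo4 (-1.66 ± 0.22). Of 8 other C/EBP genes and partners 1 passed, the pseudokinase gene Trib1, opposite at -0.47 ± 0.09 (adjusted p = 0.0162). Hepatocyte targets had 3 of 21 on the Xist side and 2 opposite. G6pc, glucose-6-phosphatase, lay opposite at -1.34 ± 0.16, Afp opposite at -1.22 ± 0.15 and Cyp7a1, which starts bile acid synthesis, on the Xist side at 0.73 ± 0.16. Acute phase targets had 3 of 21 on the Xist side and 1 opposite. Itih4, an inhibitor heavy chain, stood at 0.80 ± 0.09 and the pentraxin gene Apcs at 0.62 ± 0.12, with Lcn2, a siderophore-binding lipocalin, opposite at -0.73 ± 0.14.

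Markers of other cell types moved on the same control arrays. All 9 measured adipocyte markers passed on the Xist side, with medians of 1.08 and 4.03 on the arrays labelled male and -3.09 and -3.07 on those labelled female. Adipocytes also use Cebpa, Cebpb and Cebpd. These lay on the Xist side at 0.35, 0.09 and 0.13, and none passed with all 8 arrays. Of 9 macrophage markers 7 passed on the Xist side, with medians of 0.90 and 0.62 against -1.11 and -0.73. Of 7 lymphatic endothelial markers, listed for Prox1, 4 did so (Lyve1, Mmrn1, Reln and Nrp2) and 7 lay above 0. Reln is also a stellate cell marker, and Pdpn did not pass. Against the pool under IL1-beta these markers ran from -3.58 (Pdpn) to 6.80 (Lyve1), so the count does not stand for 1 cell type. Of 7 bile duct markers, which bear on Onecut1, 3 passed on the Xist side, with 4 above 0 and 3 below. Onecut1 and Foxa1 lay on the opposite side to all these passing markers. Of 10 hepatocyte markers 1 passed, on the Xist side, with 8 above 0 and 2 below and a median of 0.19. Most thus lay on the opposite side to Foxa1, Foxa3 and Onecut1, unlike under IL1-beta. The part of these cells in the values of the 8 genes was not tested.

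Whether the sexes differed by another amount under IL1-beta than in controls was tested as the difference of both sex differences. This sets ratios to the pool under IL1-beta against mirrored control ratios. All 4 measured sex chromosome genes lay above 0 in it, between 0.90 and 3.43 (0 passed, 4 with an unadjusted p under 0.05). Eif2s3y stood at -6.71 under IL1-beta against -10.14 in controls, and Xist at 6.15 against 5.17. A changed sex difference and the unlike kinds of ratio therefore cannot be told apart. Foxa1 stood at -0.87 ± 0.24, from -1.29 under IL1-beta against -0.42 in controls (limma adjusted p = 0.315, unadjusted p = 0.00931). None of the 8 genes passed in limma, and 1 of 8 had an unadjusted p under 0.05, where 0.209% and 10.3% of all tested genes did so (0.0261% passed above 0 and 0.182% below). With pair means 0 of 8 passed, against 0.0586% of tested genes. With the control difference as labelled, not turned, Foxa1 (-2.12, adjusted p = 0.00785) and Onecut1 (-1.44, adjusted p = 0.0145) passed. Quantile normalization turned the value of Foxa1 to 0.19 (adjusted p = 0.851). Onecut1 stood at 0.22 ± 0.20 (interval -0.25 to 0.69) and Foxa3 at 0.06 ± 0.31 (interval -0.69 to 0.81). The other 5 genes lay between -0.58 (Cebpd) and 0.20 (Foxa2). All 10 measured hepatocyte markers were below 0 (0 passed, 4 with an unadjusted p under 0.05), with a median of -0.44. So were all 9 macrophage markers (0 passed, 5 unadjusted) and all 9 adipocyte markers (1 passed, 5 unadjusted). Of 9 sinusoidal endothelial markers 6 were above 0 and 3 below, and 0 passed. The part of the cell makeup in these values was not tested. Foxa1, Foxa3 and Onecut1, each read by 1 feature, had non-overlapping arrays away from Xist or lower in females in both sex comparisons. This combination was met by 9.27% of tested genes. It rests on turning the control ratios to the side of Xist, since as labelled the female-minus-male differences of these genes in controls were 0.83, 0.89 and 1.11, opposite in sign to those under IL1-beta. Of the lists of factors and targets, other liver factors had 1 gene of 42 that passed above 0, Cux2 at 2.61 ± 0.24 (adjusted p = 0.0203). Hepatocyte targets had 1 of 21, G6pc at 3.13 ± 0.37 (adjusted p = 0.0383). With means of same-number pairs these had adjusted p values of 0.0713 and 0.107. None of the other 3 lists had a passing gene, and their smallest p belonged to Foxd3 (-1.19 ± 0.25, adjusted p = 0.185), Trib1 (1.12 ± 0.21, adjusted p = 0.144) and Fgb (-1.05 ± 0.22, adjusted p = 0.186).

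**Figure D5:**
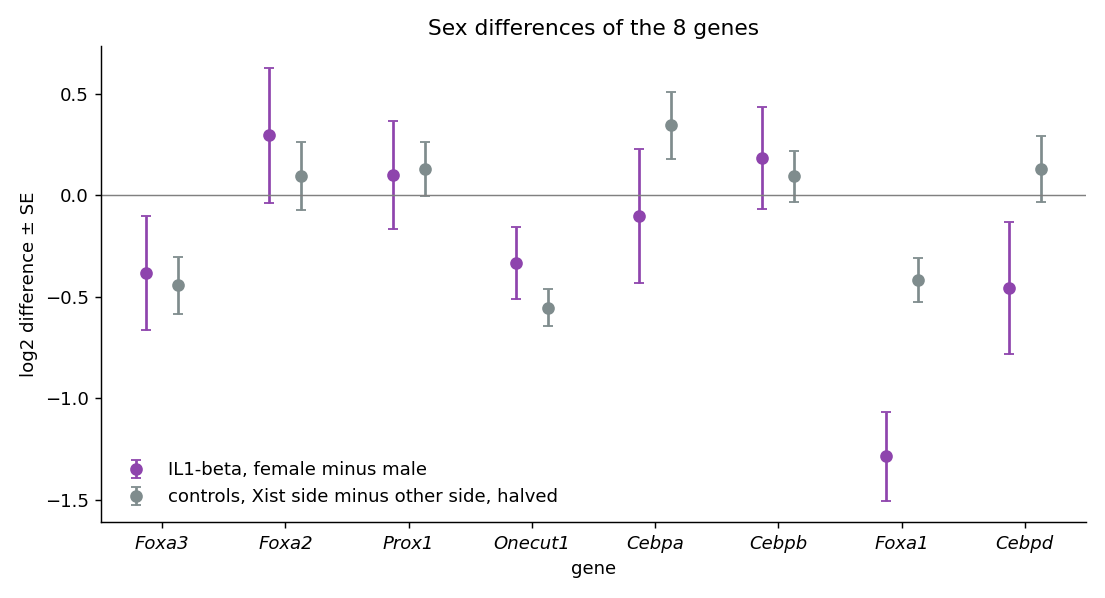
Sex difference of the 8 genes (log2 ± SE, vertical axis; genes on the horizontal axis) under IL1-beta as female minus male (left point, purple) and on the control arrays as Xist side minus other side divided by 2 (right point, grey). Foxa1 lies at -1.29 and -0.42, and Onecut1 at -0.33 and -0.55.

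Across all 8 arrays some genes followed the 8 factors closely, by the root mean square difference of log2 ratios. Nearest to Foxa3 were Bhmt (0.21), Agxt2 (0.21) and Arg1 (0.27), where the median over all genes was 4.47. Nearest to Prox1 were Ass1 (0.19), Glul (0.21) and Acat3 (0.21), and nearest to Onecut1 were Sult5a1 (0.19), Crygn (0.24) and Cblc (0.25). For Foxa1 they were Zc2hc1c (0.22), Rnf19b (0.27) and Sox13 (0.31), and for Foxa2 Pde4b (0.22), Pde9a (0.23) and Pxmp2 (0.25). For Cebpa they were Rcan1 (0.20), H2-Q10 (0.25) and Slc17a2 (0.35). For Cebpb they were Scrn2 (0.24), Tymp (0.26) and Fgfr4 (0.27), and for Cebpd Tfeb (0.23), Slc7a7 (0.24) and Acsf3 (0.24). Among the 8 genes themselves Foxa2 and Prox1 were nearest (0.36) and Foxa3 and Cebpd farthest apart (3.18). The measure is set largely by the ratio to the pool on the 4 IL1-beta arrays and is given as a description.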

How the data were processed

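The submitters' processing notes name Agilent Feature Extraction, and the labels name Trizol extraction and 2-colour arrays. How background and dye bias were handled is not stated in these sources. Per the labels and the file headers the authors deposited 1 ratio per feature and array, with no base named, and these deposited values were taken as log10 ratios. The reason is that 9 clusters of unnamed features resembling spike-ins spanned 1.51 to 1.71 units, where 10:1 to 1:10 mixtures would span 2 units in log10 and 6.64 in log2. This match is rough. Without channel intensities, how far each signal lay above background is unknown.

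Values were multiplied by 3.32 to give log2 ratios. Of 45018 features 33653 carried 1 symbol, 56 several and 11309 none in the platform annotation. Exact zeros were treated as missing, and a gene was the mean of its features measured on all 8 arrays (15346 genes). Medians over tested genes lay between -0.14 and -0.08 on the IL1-beta and between -0.02 and 0.01 on the control arrays. The means of 4 groups were compared by limma (version 3.58.1, R 4.3.3), whose moderated test had 4 residual and 2.88 prior degrees of freedom, with Benjamini-Hochberg adjustment over all genes, two-sided, at 0.05. The fit was tested on simulated arrays with independent noise, which cannot show the effect of RNA shared between control arrays. Intervals are 95% without adjustment. Patterns most like a gene were the 3 with the smallest root mean square difference. From each list and comparison the up to 3 passing genes of smallest p were named, or the 1 of smallest p where none passed. Onecut2, and Afp and A2m against the pool, were named after their values were seen. The 8 genes and all lists were chosen with earlier results of these data known.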

Additional observations from a re-analysis of the deposited data

How the results depend on the processing

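All 8 genes stayed higher in liver than in the pool and passed under all 18 alternatives. None of the 8 passed in the sex comparison under IL1-beta under any of 18. In controls, where 2 passed, the count was 1 with only the control groups, 1 with a replicate block, 0 with means of same-number pairs and 1 to 2 without single arrays. Same-number female and male arrays deviated from their group means with r = -0.43 (controls) and -0.41 (IL1-beta). The labels give the numbers no shared source, so the main test used no pairing. The replicate block kept Onecut1 (adjusted p = 0.0204) and lost Foxa1 (adjusted p = 0.0662). After quantile normalization Foxa3 passed as well (-1.02, adjusted p = 0.0136), and Foxa1 stood at -0.98 and Onecut1 at -1.33. In the difference of both sex differences 2 passed with the control difference as labelled, Foxa1 and Onecut1.

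Over all genes, the 25 calls of the sex comparison under IL1-beta became 5 after quantile normalization, 10 with only the IL1-beta groups and 7 to 23 without single arrays. The 3284 calls in controls became 6765 (quantile), 2058 (only the control groups), 1087 (pair means) and 1516 to 3130 (without single arrays). The 32 calls in the difference of differences became 628 (quantile), 11 (exact zeros kept), 9 (pair means), 2189 (as labelled), 0 to 27 (without single arrays, 0 without any of the 4 IL1-beta arrays) and 0 with a replicate block, where 1261 genes had an unadjusted p under 0.05. A block with the male numbers exchanged, added after the data were seen, gave 15 there and moved no other count by over 1.5 times.

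Some signs turned. With the Prox1 feature of highest ratio the sex difference was -0.28 under IL1-beta and -0.021 in controls, and the Cebpb difference of differences was -0.010 in that setting. Quantile normalization turned that of Foxa1 to 0.19. With the control difference as labelled it was -1.27 (Foxa3), 0.59 (Cebpa), -1.44 (Onecut1) and 0.36 (Prox1). Without single arrays the sex difference under IL1-beta ran from -0.20 to 0.79 (Foxa2), -0.22 to 0.017 (Cebpa), -0.037 to 0.41 (Cebpb), -0.93 to 0.017 (Cebpd) and -0.23 to 0.43 (Prox1), that in controls from -0.010 to 0.20 (Foxa2) and -0.0012 to 0.19 (Cebpb), and their difference from -0.29 to 0.69 (Foxa2), -0.15 to 0.28 (Foxa3), -0.13 to 0.31 (Cebpb) and -0.36 to 0.30 (Prox1). The causes of these changes were not tested.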

Other observations

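Foxa3, Cebpa and Cebpb had negative means over the 4 control arrays, where a pure mirrored contrast would give 0. The means were -0.43, -0.44 and -0.42 (log2), each farther from 0 than that of over 92% of tested genes, where the median distance was 0.13. For Foxa1 (0.02) and Onecut1 (0.03) the mean was close to 0. These means rest on unlike arrays. Cebpa read -0.11 and -0.08 on the arrays labelled male and -0.28 and -1.29 on those labelled female, so that the second array labelled female set most of its mean. Foxa3 read -0.9999 and -0.74 on the arrays labelled male and 0.35 and -0.31 on those labelled female. Cebpb was below 0 on all 4 arrays, at -0.50 and -0.15 on the arrays labelled male and -0.32 and -0.70 on those labelled female.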
